A study of Mus musculus with 12 samples.

Results

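Regions carrying acetylated histone H3 lysine 27 (H3K27ac) far from every protein-coding gene start were described in adult cardiomyocytes (CMs) that lacked RIP140 and in control CMs. A region was included when it was under 10000 bp wide, lay on chromosomes 1 to 19 or X, and had its center more than 100 kb from every transcription start site (TSS) of a protein-coding gene in GENCODE M21 on GRCm38. This rule took 6661 of the 53750 control regions (12.4%) and 4981 of the 45517 RIP140-null regions (10.9%), which was 11642 of 99267 regions in all. These are called distal regions here. A further 168 control and 177 RIP140-null regions met the distance but not the width.

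RIP140, the product of Nrip1, is a coregulator that binds nuclear receptors and represses many genes of energy metabolism. The RIP140-null CMs came from csNrip1-/- mice (Nrip1 f/f Cre+), in which Cre recombinase driven by the Nkx2.5 promoter removes a floxed part of Nrip1 that includes the coding sequence in exon 4. Control CMs came from littermates with the same floxed alleles and no Cre (Nrip1 f/f Cre-), so effects of Cre itself and of the deletion cannot be told apart. All mice were 10 to 12 weeks old, and CMs were isolated by perfusion of the heart and enriched by a low-speed spin. CUT&RUN, in which an antibody directs a nuclease to chromatin and the released DNA is sequenced, was run on 200000 CMs per experiment, with 3 H3K27ac and 3 IgG replicates per genotype. The processed files used here are 1 list of regions per genotype, each with the regions that 2 or more of the 3 replicates shared. The lists carry no signal and no value per replicate, so the depth and the error between replicates were not available from them and no test between genotypes was made. Intervals of shares are 95% Wilson binomial intervals, which cover the counting of regions only, and neighboring regions are not independent.

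H3K27ac marks active promoters and enhancers. Enhancers are stretches of DNA that bind transcription factors and raise the transcription of a gene that can lie far away, reached by looping of the chromatin. Long stretches without genes, called gene deserts, often flank developmental regulators and hold many of their enhancers. The nearest gene on the chromosome is therefore a description of position and need not be the gene that an enhancer acts on.

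To show what such DNA looks like, the central bases of distal loci are given below from the plus strand of GRCm38. A locus is a stretch in which regions of either list overlap, and it is called a both-list, control-only or KO-only locus by the lists that hold it. The first 3 sequences are the central 200 bp of the widest locus of each class whose regions all met the rule, and none of the motifs searched below has a match in them. All 3 loci lie outside protein-coding genes. The next 6 are 60 bp around a match, in capitals, to the motif of MEF2 factors, which drive cardiac muscle genes, or of estrogen-related receptors (ERRs), which drive genes of mitochondrial metabolism. Each comes from the widest such locus of its class with that match in its central 200 bp among the chromosomes searched for examples, and all 6 lie outside protein-coding genes.
Both lists, nearest Diaph3 (chr14:86329722-86329921): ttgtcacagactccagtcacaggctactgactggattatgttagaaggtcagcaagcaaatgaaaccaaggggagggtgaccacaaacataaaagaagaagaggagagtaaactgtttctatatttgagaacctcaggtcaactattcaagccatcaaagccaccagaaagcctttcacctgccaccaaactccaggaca
Control only, nearest Akr1e1 (chr13:5080536-5080735): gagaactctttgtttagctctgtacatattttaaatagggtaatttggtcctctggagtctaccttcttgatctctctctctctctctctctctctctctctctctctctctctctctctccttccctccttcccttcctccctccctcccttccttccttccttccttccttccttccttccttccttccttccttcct
KO only, nearest Epha4 (chr1:77082842-77083041): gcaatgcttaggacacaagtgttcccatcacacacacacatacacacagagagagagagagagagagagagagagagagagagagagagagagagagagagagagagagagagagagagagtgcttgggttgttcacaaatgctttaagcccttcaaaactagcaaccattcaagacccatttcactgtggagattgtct
MEF2 match, both lists, nearest Atp10a (chr7:58843164-58843223): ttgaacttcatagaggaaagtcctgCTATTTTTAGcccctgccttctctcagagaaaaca
MEF2 match, control only, nearest Cpne8 (chr15:90813393-90813452): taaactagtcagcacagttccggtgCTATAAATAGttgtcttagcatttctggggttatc
MEF2 match, KO only, nearest Eepd1 (chr9:25605828-25605887): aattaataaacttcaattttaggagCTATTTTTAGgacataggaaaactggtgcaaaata
ERR match, both lists, nearest Pitrm1 (chr13:6255496-6255555): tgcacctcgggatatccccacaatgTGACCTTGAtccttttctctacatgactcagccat
ERR match, control only, nearest Klf4 (chr4:55637449-55637508): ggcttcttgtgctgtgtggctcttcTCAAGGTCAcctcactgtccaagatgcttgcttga
ERR match, KO only, nearest Zmiz1 (chr14:25182778-25182837): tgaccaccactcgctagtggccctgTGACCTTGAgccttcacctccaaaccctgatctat
The center of the widest control-only locus was largely simple repeats of pyrimidine letters. That of the widest KO-only locus held a long run of alternating purine letters. The reference marks 95.5% of the control-only window and 57.5% of the KO-only window as repeat, against 16.0% of the both-list window.

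The targeted gene was examined first, because it checks the genotype labels. Exon 4 of Nrip1 spans chr16:76287400-76295015. A control region at chr16:76292112-76306550 covered 2904 bp of it, whereas no RIP140-null region overlapped the exon. Each list held 10 regions in the Nrip1 gene body as a whole, and its promoter was marked in both. Far from the gene, 7 distal loci had Nrip1 as their nearest protein-coding gene, with 4 held by both lists, 1 control-only and 2 KO-only. The widest, at chr16:76522019-76536739 and 156 kb from the TSS, had 12583 bp of control and 13693 bp of RIP140-null regions. Thus the mark was missing over the floxed exon and was retained at most of the distal loci beside the gene.

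The label of gene deserts was then checked against the annotation. Of the distal control regions, 24.1% (23.1% to 25.2%) had their center inside a protein-coding gene, as did 24.6% (23.4% to 25.8%) of the distal RIP140-null regions. Only 15 control and 13 RIP140-null centers lay in an exon, so nearly all of these were in introns of long genes. Among all other regions, 70.3% and 70.6% lay inside a protein-coding gene. By this choice of TSSs, about 3 in 4 distal regions thus lay outside every protein-coding gene. With the TSSs of gene records only, the shares inside genes were 49.5% and 50.9%. Long noncoding RNA genes held the centers of 15.6% of control and 15.4% of RIP140-null distal regions, compared with 7.56% and 7.72% of other regions. A noncoding RNA TSS lay within 1000 bp of 2.30% of control and 2.67% of RIP140-null distal regions, fewer than the 3.40% and 4.01% of other regions. When the TSSs of all GENCODE M21 genes were counted, only 1267 control and 973 RIP140-null regions lay over 100 kb from every TSS. The median distance to a protein-coding TSS was 187 kb in control CMs and 184 kb in RIP140-null CMs. The members nearest the limit had their centers at 100008 bp from the TSS of Sema6a in control CMs and at 100036 bp from that of Sgk1 in RIP140-null CMs, and the nearest regions left out were at 99961 bp (Hdac9) and 99990 bp (Irx4). At the width limit, the widest members measured 9998 bp and 9990 bp, and the narrowest distant regions left out measured 10012 bp and 10004 bp.

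Distal sequence made up 915 Mb, or 35.8%, of the sequenced bases of these chromosomes. It held 7.28 control regions and 5.44 RIP140-null regions per Mb, against 28.5 and 24.5 per Mb in the rest of the genome. The RIP140-null list held 0.748 distal regions for each distal control region, compared with 0.861 for all other regions. Distal regions were therefore a smaller part of the RIP140-null list than of the control list.

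Regions found in 1 list only were more frequent among distal regions than in the lists as a whole, and more so in control CMs. Of the distal control regions, 2712 (40.7%, 39.5% to 41.9%) overlapped no RIP140-null region, whereas this held for 29.5% of all control regions. Of the distal RIP140-null regions, 1258 (25.3%, 24.1% to 26.5%) overlapped no control region, against 21.5% of all RIP140-null regions. With a reciprocal overlap of 50% required, the distal shares were 61.2% in control and 48.1% in RIP140-null CMs. The shares over all regions were not taken with this overlap. Among the 1443 control and 1380 RIP140-null distal regions merged from 3 or more subpeaks, the shares were 10.5% and 7.90%. Over all regions with 3 or more subpeaks, 906 of 16707 control and 1195 of 17774 RIP140-null regions were found in 1 list. There the order of the genotypes was the opposite. Every region had at least 2 subpeaks, and 5.60% of control-only and 8.66% of KO-only distal regions had 3 or more. Of the distal regions found in both lists, 32.7% of control and 34.1% of RIP140-null regions had 3 or more. The control-only share rose with distance, from 11.4% within 1 kb of a TSS to 36.6% at 50 to 100 kb, 39.2% at 100 to 200 kb, 41.6% at 200 to 500 kb and 46.6% beyond 500 kb. The KO-only share was 13.5% within 1 kb and then stayed between 24.4% and 25.2% up to 500 kb, with 28.8% (24.6% to 33.4%) beyond. Distance was thus related to the control-only share over its whole range and to the KO-only share mainly within the first 10 kb.

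**Figure D1:**
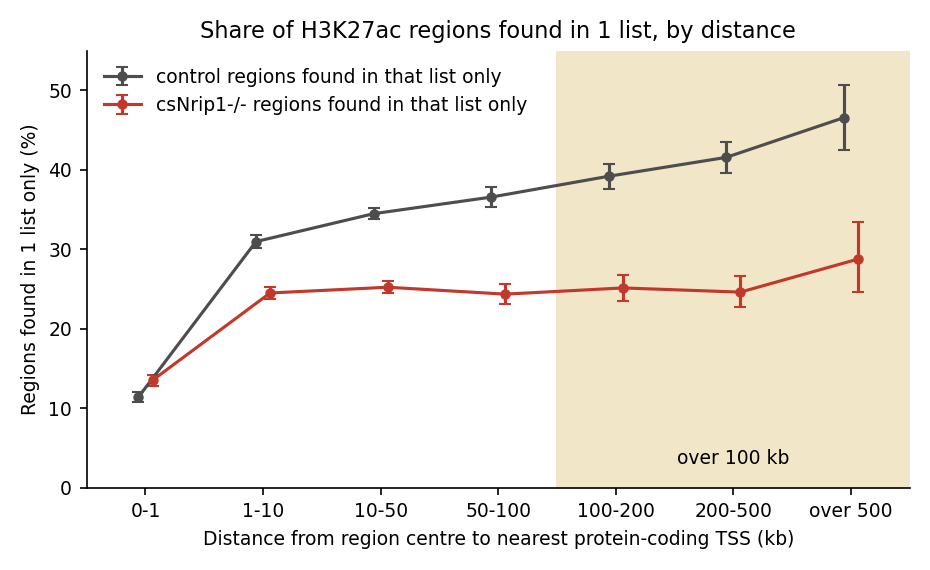
Share of regions under 10000 bp wide that were found in 1 list only (percent, with 95% Wilson intervals as bars) against the distance of their center from the nearest protein-coding TSS (kb), for control and csNrip1-/- CMs. In the shaded bins, which hold the distal regions, the control share climbs to 46.6% and the csNrip1-/- share ends at 28.8%.

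Narrow regions were more often found in 1 list, so the shares were compared within width classes. Of distal control regions from 500 to under 1000 bp wide, 74.2% were control-only, compared with 65.6% of other control regions of that width. From 1000 bp the shares were 48.6% and 33.4%, from 2000 bp they were 22.2% and 12.0%, and from 4000 bp up to the limit they were 3.51% and 2.28%. In RIP140-null CMs the distal and other shares were 57.7% and 57.6% in the narrowest class, then 35.8% and 30.1%, 15.6% and 13.5%, and 3.31% and 3.24% in the widest. Weighted to the widths of the distal regions, the share among other regions came to 30.6% in control CMs and 22.7% in RIP140-null CMs. The distal share exceeded it by 10.1 percentage points in control CMs and by 2.51 points in RIP140-null CMs. The other regions include those close to a TSS, where the shares were lowest. Without weighting, 35.0% of control and 25.04% of RIP140-null regions at 10 to 100 kb were found in 1 list. The distal shares were 40.7% and 25.3%, so only the control share was clearly higher than at 10 to 100 kb.

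The control list is the longer, so the shares were also taken from lists of equal length. With only the 45517 widest regions kept in each list, 32.7% (31.5% to 33.9%) of distal control regions and 29.1% (27.8% to 30.3%) of distal RIP140-null regions were found in 1 list, so the difference between genotypes narrowed from 15.5 to 3.62 points. The same lists gave 20.6% and 24.7% for all other regions, where the order of the genotypes was the opposite. This setting removed control regions under 894 bp and kept RIP140-null regions down to 501 bp, so length of the list and width of its regions cannot be told apart. Distal regions kept the higher share in both genotypes under this setting.

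Distal regions were about as wide as regions at 10 to 100 kb. Their median width was 1694 bp (quartiles 1021 and 3026 bp) in control CMs and 2172 bp (1292 and 3719 bp) in RIP140-null CMs, whereas the medians under the same width limit at 10 to 50 kb were 1691 bp and 2104 bp and at 50 to 100 kb 1721 bp and 2119 bp. Regions found in both lists had medians of 2447 bp in the control and 2623 bp in the RIP140-null list. Those found in 1 list were narrower and measured 1086 bp in the control and 1275 bp in the RIP140-null list. Because of this, control-only regions were 40.7% of the distal control regions by number but covered 3.61 of their 15.6 Mb, and KO-only regions covered 1.97 of 13.9 Mb.

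**Figure D2:**
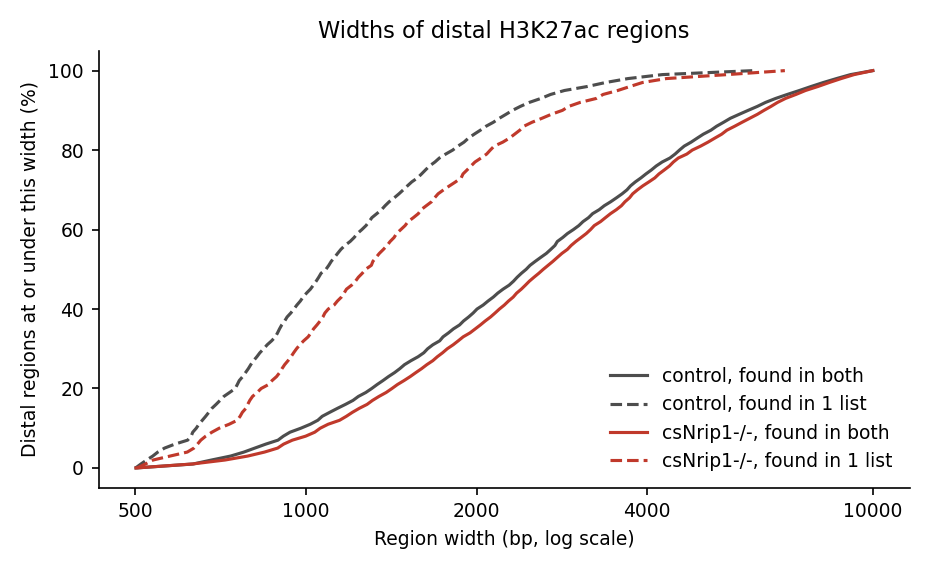
Cumulative share of distal regions (percent) at or under a given width (bp, log scale), by genotype and by whether the region was found in both lists or in 1. The 2 dashed curves, for regions found in 1 list, lie to the left, with medians of 1086 bp (control) and 1275 bp (csNrip1-/-).

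Merged over both lists, the distal regions formed 7519 loci, of which 3549 (47.2%) were held by both lists, 2712 (36.1%) were control-only and 1258 (16.7%) were KO-only. At the loci held by both lists, the median log2 ratio of RIP140-null to control covered length was 0.03 (quartiles −0.33 and 0.39), compared with 0.08 (−0.22 and 0.41) over all loci of the genome held by both. With equal numbers of the widest regions it was 0.0043, and the spread over loci is no error between genotypes, so covered length was not read as different. RIP140-null coverage was more than 1.5 times longer at 17.1% of distal both-list loci and more than 1.5 times shorter at 14.6%. Over all both-list loci these shares were 17.3% and 10.3%. Of the distal both-list loci, 259 also included a region outside the rule. Distal loci were spaced somewhat more widely than others, with a median gap of 3.97 kb to the next locus against 3.11 kb and an upper quartile of 15.5 kb against 9.06 kb. Most distal loci thus lay close to another locus in spite of the sparse cover of deserts.

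This grouping was visible when distal sequence was divided into 2326 uninterrupted stretches between protein-coding TSSs. Only 1189 of them (51.1%) held a locus, and 160 stretches held at least 50% of the loci within stretches. Of 241 stretches of 1 Mb or more, 57 held none, the longest being 3.62 Mb between Dsel and Cntnap5a on chromosome 1. The most loci, 111, lay in the 1.05 Mb of distal sequence between Akr1e1, which encodes an aldo-keto reductase, and Klf6, a zinc finger transcription factor (chr13:4709175-5761481). There, 39 loci were held by both lists, 57 were control-only and 15 were KO-only. The stretch between Adamts5, a protease of the extracellular matrix, and N6amt1 followed with 82 loci, 30 in both lists, 44 control-only and 8 KO-only (chr16:86001829-87254184). Of all distal loci, 47.2% were in both lists, 36.1% were control-only and 16.7% were KO-only. These stretches were chosen for their number of loci in both lists together, in which the longer control list weighs more. By chromosome, chromosome 13 had the highest density, with 16.2 loci per Mb of distal sequence, and X the lowest, with 2.01. The control-only share of distal control regions ran from 27.6% on chromosome 19 to 45.4% on chromosome 14.

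**Figure D3:**
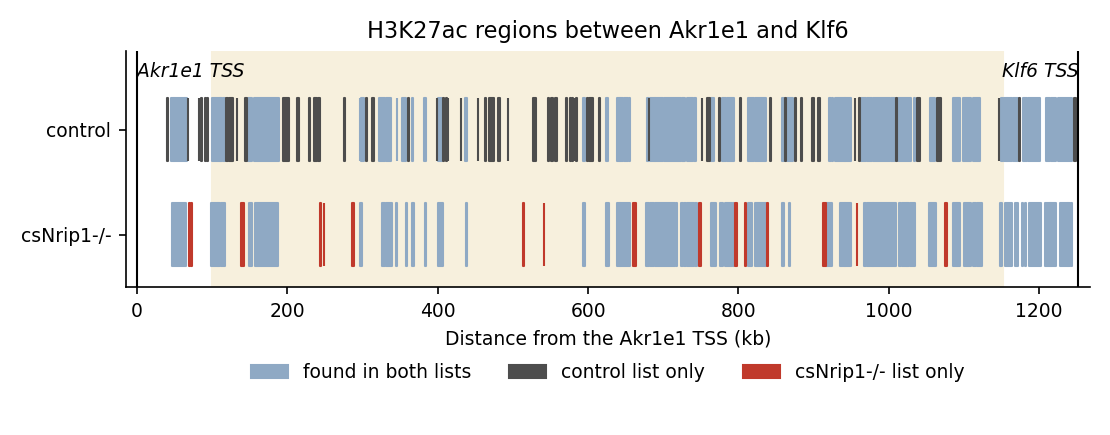
Regions of both lists between the TSSs of Akr1e1 and Klf6, drawn to scale as distance from the Akr1e1 TSS (kb), with each region colored by whether it overlaps a region of the other list. The shaded part lies over 100 kb from both TSSs and holds 111 loci, of which 57 are control-only, 40 of them nearer to Akr1e1.

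The loci had 1523 different protein-coding genes as nearest neighbors, out of 3316 with any distal sequence. Of these genes, 470 had a single locus, and the 10 with most loci took 567 loci (7.54%) from 1.09% of the distal length. Klf6 was first with 72 loci, 30 in both lists, 30 control-only and 12 KO-only. Dach1, a transcriptional cofactor, had 65 (22, 31 and 12 in the same order), of which 37 lay inside the gene itself. Zfp608, a zinc finger protein, had 64 (25, 33 and 6). Tbl1xr1, a subunit of nuclear receptor corepressor complexes, had 59 (25, 25 and 9). Cited2, which binds the coactivators CBP and p300 and is needed for heart development, had 53 (26, 22 and 5), and its farthest locus was 1381 kb from the TSS. Akr1e1 had 60 loci, with 14 in both lists, 40 control-only and 6 KO-only, and its covered length was 139 kb in control CMs and 65.9 kb in RIP140-null CMs. The others were Adamts5 with 52 loci, Marcks, a regulator of the actin cytoskeleton, with 50, Adgrl2, an adhesion receptor, with 47, and Gja1 with 45. The promoters of all 10 were marked in both lists.

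Near these 10 genes, 48.1% of loci were control-only and 12.3% KO-only, compared with 35.1% and 17.1% of the loci nearest all other genes. The 10 genes were chosen for their number of loci in both lists together, and the longer control list weighs more in that number. The genes with most control-only loci were Akr1e1 (40), Zfp608 (33), Dach1 (31), Klf6 (30) and Marcks (29). Those with most KO-only loci were Dach1 and Klf6 (12 each), followed by Myc, a transcription factor of cell growth, Tbl1xr1 and Trib2, a pseudokinase (9 each). Covered length near Klf6 was 298 kb in control and 268 kb in RIP140-null CMs, and near Trib2 it was 140 kb and 118 kb.

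**Figure D4:**
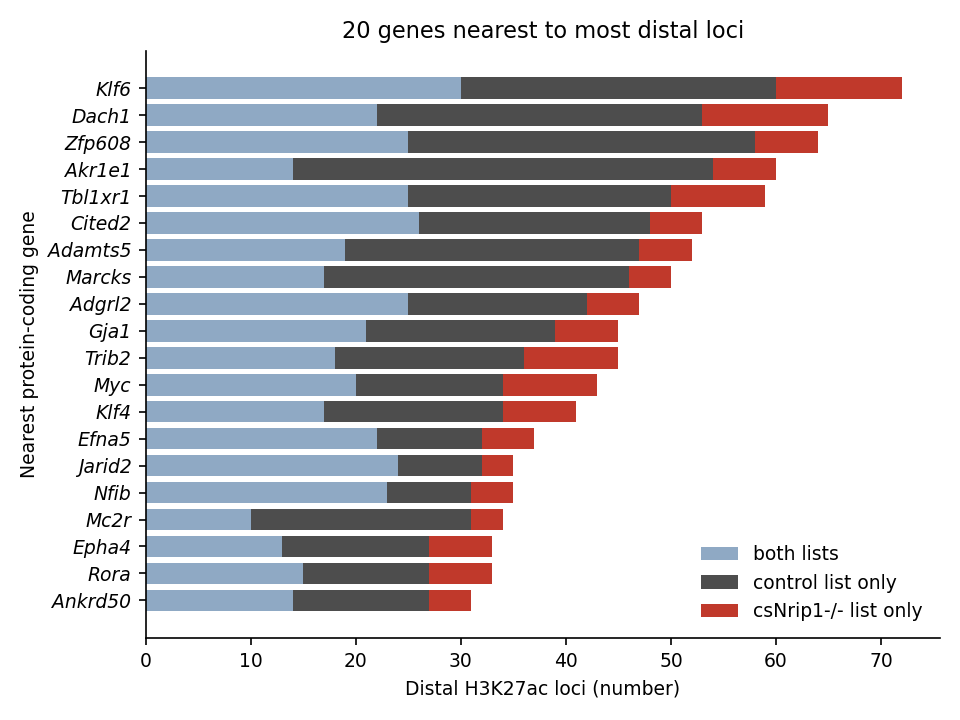
Number of distal loci for the 20 protein-coding genes nearest to most of them, split into loci held by both lists, by the control list only and by the csNrip1-/- list only. Klf6 leads with 72 loci, and control-only loci outnumber both-list loci at several genes, among them Akr1e1, Zfp608, Dach1, Adamts5 and Marcks.

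Promoters of the nearest genes were marked more often than those of all protein-coding genes. With each of the 1523 genes counted once, 61.2% had a control region from 1000 bp before to 100 bp after a TSS and 62.1% had a RIP140-null region there, against 50.6% and 52.7% of all 21755 protein-coding genes. Counted per locus, so that genes with many loci weigh more, the shares were 71.2% and 72.4%. For windows placed every 10000 bp in distal sequence outside all regions, the nearest gene was marked at 44.0% in control and 44.9% in RIP140-null CMs. By class, with each gene counted once, the nearest promoter was marked in control CMs for 65.1% of genes with both-list loci, 62.4% with control-only loci and 63.9% with KO-only loci. Per locus the shares were 72.4%, 71.2% and 68.0%, so the order of control-only and KO-only loci depended on the count.

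Among regulators of energy metabolism, 6 of the 18 listed nuclear receptors and coregulators had distal sequence, and all 6 had a distal locus. Together they took 69 loci (0.918% of all) from 0.270% of the distal length, with 35 (50.7%) in both lists, 21 (30.4%) control-only and 13 (18.8%) KO-only, where all distal loci had 47.2%, 36.1% and 16.7%. Rora, a nuclear receptor of the circadian clock, accounted for 33 of them, 15 in both lists, 12 control-only and 6 KO-only. Ppargc1a, which encodes PGC-1α, the coactivator of mitochondrial biogenesis, had 12 loci, with 8 in both lists, 4 control-only and none KO-only. Its covered length was 31.3 kb in control CMs and 22.5 kb in RIP140-null CMs, and the locus at chr5:51449524-51455985, the nearest to a TSS, was covered over 6462 bp in control and 2184 bp in RIP140-null CMs. Esrrg, which encodes ERRγ, had 8 loci, all inside the gene, with 2 in both lists, 3 control-only and 3 KO-only, and its covered length was 7.18 kb in control and 11.4 kb in RIP140-null CMs. Thrb, a thyroid hormone receptor, had 8 loci and a covered length of 12.0 kb and 19.9 kb in the same order. The 2 coactivator and receptor genes of mitochondrial metabolism thus had covered lengths that differed in opposite directions between the lists, on few loci each.

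Of 36 cardiac transcription factors, 24 had distal sequence and 15 had a distal locus. Together they had 88 loci, 1.17% of loci on 1.00% of the distal length. Of these, 38 (43.2%) were in both lists, 33 (37.5%) were control-only and 17 (19.3%) were KO-only, near the 47.2%, 36.1% and 16.7% of all distal loci. Mef2c, which activates muscle genes, had 14 loci, all upstream of it, with 5 in both lists, 6 control-only and 3 KO-only. A pair of its KO-only loci were adjacent, at chr13:83072387-83074245 and chr13:83075440-83082191, and the second, 425 kb from the TSS, was the fourth widest KO-only locus of all. Zfpm2, the GATA4 cofactor FOG2, had 13 loci, 12 of them inside the gene, and was covered over 31.0 kb in control and 18.6 kb in RIP140-null CMs. Hand2, a regulator of heart development, had 10 loci, all upstream, with 6 in both lists, 4 control-only and none KO-only. The locus nearest it, 115 kb from the TSS at chr8:57196982-57215874, was covered over 18823 bp in control and 18185 bp in RIP140-null CMs, and the 4 control-only loci measured 511 to 970 bp. Irx3, a homeobox gene, had 9 loci, 4 in both lists, 2 control-only and 3 KO-only, and its 2 most proximal loci were KO-only and lay inside the neighboring gene Fto. Its promoter was marked in RIP140-null CMs and not in control CMs. Gata6 had 6 loci, Meis1 and Nr2f2 had 6 each, Nr2f1 and Sox6 had 5 each, Irx5 had 4, and Meis2 and Shox2 had 3 each. The widest locus was thus held by both lists near Hand2 and Zfpm2, whereas near Mef2c it was KO-only.

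Of 14 ion channel and gap junction genes, 8 had distal sequence and 6 had a distal locus. Together they had 73 loci, 0.971% of loci on 0.464% of the distal length. The loci were 47.9% in both lists, 35.6% control-only and 16.4% KO-only, near the 47.2%, 36.1% and 16.7% of all distal loci. Of these, 45 were nearest Gja1, which encodes connexin 43, the main gap junction protein of ventricular CMs. All 45 lay downstream, 21 in both lists, 18 control-only and 6 KO-only, and covered 152 kb in control and 121 kb in RIP140-null CMs. The widest of them to meet the rule throughout, at chr10:56595803-56613268, was covered over 14182 bp and 10981 bp. The potassium channel gene Kcnd2 had 9 loci, with 40.3 kb covered in control and 40.6 kb in RIP140-null CMs. Kcnj2, for an inward rectifier potassium channel, had 6, and Kcna5 had 5. Of 19 sarcomere and calcium genes, 4 had distal sequence and 3 had a distal locus. Together they had 11 loci, 0.146% of loci on 0.143% of the distal length. Slc8a1, the sodium-calcium exchanger, had 5, and the L-type calcium channel gene Cacna1c had 3, all held by both lists. Ryr2, the calcium release channel, had 3, including a KO-only locus of 2678 bp inside the gene, 106 kb from a TSS.

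Adhesion and axon guidance genes, which often border deserts, had fewer loci than their length. They were nearest to 323 loci (4.30%), with 171 (52.9%) in both lists, 105 (32.5%) control-only and 47 (14.6%) KO-only, but to 9.57% of the distal length. All distal loci had 47.2%, 36.1% and 16.7% in these classes. Efna5, an ephrin, had 37, Epha4, an ephrin receptor, had 33, Pcdh7, a protocadherin, had 30, Cdh13, T-cadherin, had 29 with all inside the gene, and Sema6d, a semaphorin, had 18. Cdh11, Cntn5 and Sema6a had 10 each, Cdh20 and Ntn1 had 9 each, and Slit3 had 8, of which 4 were KO-only and 1 was control-only. Cntn3 and Robo2 had 7 each. Cdh4, Cdh6, Pcdh17, Ptprd, Robo1, Sema3a, Lrrtm3, Cdh26, Cntnap5a, Nrxn3, Pcdh15, Pcdh18, Pcdh20, Cdh2, Cdh5, Cntnap2, Epha3 and Slitrk5 had between 3 and 6.

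Among both-list loci whose regions all met the rule, the widest were next to Diaph3 (26683 bp, chr14:86316481-86343163), Cdkal1 (23447 bp, inside the gene, chr13:29616873-29640319), Cited2 (18993 bp, chr10:16572935-16591927), Plcb1 (18052 bp, inside the gene, chr2:134910723-134928774) and Gja1 (17466 bp). Their covered length was longer in RIP140-null CMs at Diaph3 (19161 bp in control, 22279 bp in RIP140-null CMs). It was longer in control CMs at Cdkal1 (19491 and 18590 bp) and Cited2 (17962 and 16167 bp). The same held at Plcb1 (15209 and 13531 bp) and Gja1 (14182 and 10981 bp). The widest control-only loci were far narrower. They lay near Akr1e1 (6159 bp, chr13:5077557-5083715), Trib2 (5986 bp, chr12:15638983-15644968), Diaph3 (5950 bp, chr14:86362826-86368775), Hs3st1, a heparan sulfate sulfotransferase (5630 bp, chr5:39871793-39877422), and Myc (5584 bp, chr15:62298949-62304532). The widest KO-only loci lay near Epha4 (6994 bp, chr1:77079445-77086438), the homeobox gene Meox2 (6960 bp, chr12:36787457-36794416), Fmo9 (6872 bp, chr1:166792001-166798872), Mef2c (6752 bp) and Agbl1 (6334 bp, inside the gene, chr7:77065308-77071641). The 3 loci farthest from any protein-coding TSS were a both-list locus 2120 kb from Celf4 and control-only loci 2119 kb from Olfm4 and 2068 kb from Cdh20.

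Cell type markers were read from their promoters. All 8 CM markers (Myh6, Tnnt2, Tnni3, Actn2, Ttn, Ryr2, Myl2 and Pln) were marked in both lists. Of 6 endothelial markers, 6 were marked in control and 5 in RIP140-null CMs, with Cdh5 marked in control CMs only. Of 8 fibroblast markers, Col3a1 and Pdgfra were marked in control CMs and none in RIP140-null CMs, and the other 6 (Col1a1, Col1a2, Dcn, Lum, Postn and Tcf21) were marked in neither. Of 6 mural markers, 3 were marked in control and 4 in RIP140-null CMs. None of the 6 macrophage markers was marked in either list. Distal loci nearest fibroblast markers numbered 10, with 6 in both lists, 4 control-only and none KO-only. Those nearest endothelial markers numbered 7, with 5 in both lists, 2 control-only and none KO-only. Of all 7519 distal loci, 47.2% were in both lists, 36.1% control-only and 16.7% KO-only. Ptprc, a leukocyte gene whose promoter was unmarked, was nearest to 17 loci, 8 in both lists, 5 control-only and 4 KO-only. Among these markers, Cdh5, Col3a1 and Pdgfra were thus marked in the control list only, whereas more mural markers were marked in the RIP140-null list. Over all protein-coding genes, 50.6% of promoters were marked in control and 52.7% in RIP140-null CMs. The part of other cell types in the control-only loci was not tested.

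The sequence of distal regions differed from that of desert windows without the mark. Median GC content in the central 200 bp was 42.5% in control and 43.0% in RIP140-null distal regions, compared with 39.0% in 88536 windows and 46.5% and 47.5% in other regions. At least 50% of the bases were marked as repeat in 9.76% of control and 8.81% of RIP140-null distal regions, in 9.38% and 8.99% of other regions, and in 32.9% of windows, so the low share was common to regions near and far. By class, the share was 10.8% of control-only against 9.04% of both-list control regions, and 9.06% of KO-only against 8.73% of both-list RIP140-null regions.

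Motifs were searched on both strands of the central 200 bp. The letters were TCAAGGTCA for ERRs, AGATAAG for GATA factors, GGAATGT for TEAD factors, CACTTAA for NKX2-5, AGGTGTGA for TBX5, TGANTCA for AP-1 and CCGGAAGT for ETS factors, besides the MEF2 and CTCF consensus, and no motif contains another. A match describes letters and not a bound site. The MEF2 motif was found in 1.46% (1.20% to 1.77%) of distal control and 1.69% (1.36% to 2.08%) of distal RIP140-null regions, against 0.435% of distal windows, 1.05% and 0.970% of other regions, and 1.37% and 1.29% of regions at 10 to 100 kb. The ERR motif was found in 0.525% (0.378% to 0.730%) of control and 0.743% (0.539% to 1.02%) of RIP140-null distal regions, against 0.307% of windows. It was in 0.675% and 0.666% of other regions and in 0.685% and 0.717% of regions at 10 to 100 kb. By class, it was in 0.442% of control-only and 0.582% of both-list control regions, on 12 and 23 matches. In RIP140-null CMs it was in 0.477% of KO-only and 0.833% of both-list regions, on 6 and 31 matches. With the central 1000 bp searched, the RIP140-null order was the opposite (3.66% and 3.09%). TEAD matches were in 3.54% and 3.71% of distal regions and 2.69% of windows, and AP-1 matches in 7.21% and 7.45% against 6.02%. At 10 to 100 kb, TEAD matches were in 3.15% of control and 3.24% of RIP140-null regions, and AP-1 matches in 7.15% and 6.91%. GATA matches were in 3.56% (3.14% to 4.03%) of control and 3.73% (3.24% to 4.30%) of RIP140-null distal regions, against 3.21% of windows, and NKX2-5 matches in 3.17% of both, against 2.98%. TBX5 matches were in 0.631% (0.467% to 0.851%) of control and 0.883% (0.659% to 1.18%) of RIP140-null distal regions, against 0.633% of windows. The order of the genotypes was the opposite in other regions (0.811% and 0.703%) and in the central 1000 bp of distal regions (3.69% and 3.57%). ETS matches, common at promoters, were in 0.180% of distal and 0.756% of other control regions and in 0.0689% of windows. CTCF matches were in 0.300% (0.194% to 0.463%) of control and 0.281% (0.168% to 0.471%) of RIP140-null distal regions, 0.684% and 0.577% of other regions and 0.0520% of windows, so CTCF had the largest ratio to windows (5.78 and 5.41) and MEF2 the next (3.35 and 3.88). The CTCF ratios rested on 20 and 14 matches. With the central 1000 bp searched they were 3.74 and 4.23, and those of MEF2 were 2.46 and 2.83. MEF2 matches were about as frequent in control-only (1.70%, 1.27% to 2.25%) as in both-list control regions (1.29%, 0.984% to 1.69%), and in KO-only (1.43%) as in both-list RIP140-null regions (1.77%). CTCF matches were in 0.442% (0.253% to 0.772%) of control-only against 0.203% (0.103% to 0.399%) of both-list control regions, and in 0.636% (0.323% to 1.25%) of KO-only against 0.161% (0.0739% to 0.351%) of both-list RIP140-null regions, on 8 and 6 matches in the last pair. Among other regions, CTCF matches were in 1.26% of control and 1.42% of RIP140-null regions found in 1 list. These shares were also above the 0.684% and 0.577% of all other regions. The windows were not matched for GC content.

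**Figure D5:**
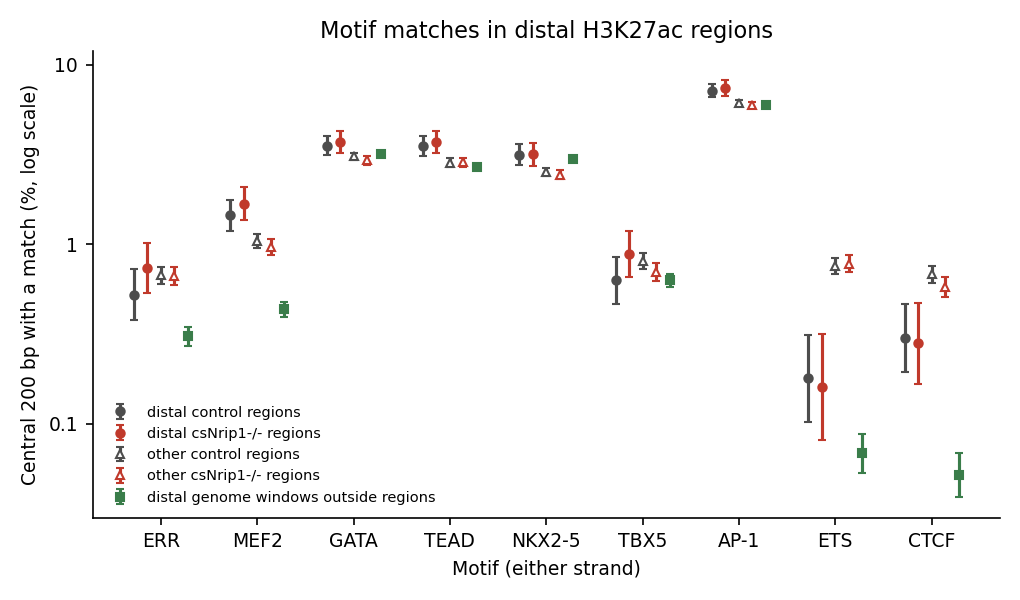
Share of regions with a motif match in their central 200 bp (percent, log scale, with 95% Wilson intervals) for distal and other regions of both lists and for distal genome windows outside all regions. MEF2 shows 1.46% and 1.69% in distal regions against 0.435% in windows, and ETS and CTCF matches are rarer in distal than in other regions but more frequent than in windows.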

How the data were processed

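The authors used Bowtie2 2.4.2 for alignment of CUT&RUN reads to GRCm38 and SAMtools for removal of duplicates, called H3K27ac regions per replicate against IgG with HOMER 4.11.1, merged them and deposited 1 list per genotype of regions found in at least 2 of 3 replicates. The deposited files give positions, a name ending in the number of merged subpeaks, and a constant score, which was not used. Here, 25 control and 18 RIP140-null regions on other sequences were left out. Regions counted as found in both lists when they overlapped by at least 1 bp. The TSSs of all transcripts of protein-coding GENCODE M21 genes were used. Named genes were taken from the 10 nearest to most loci, the 5 nearest to most control-only and most KO-only loci, those of the 5 widest loci per class and of the 3 farthest loci, and members of 5 written gene lists with at least 3 loci, with ties taken by symbol. Ptprc, the stretches and the loci singled out by position were chosen after their values were seen. Example sequences were sought on all chromosomes but 18. The members and lists were chosen with earlier results of these data known. Overlap, distance and merging steps were tested on simulated data. All counts were made in Python 3.11.15 with scipy 1.17.1, numpy 2.4.6 and matplotlib 3.10.9.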

Additional observations from a re-analysis of the deposited data

How the results depend on the processing

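The control-only share of distal control regions, 40.7% as reported, was 46.8% when at least 50% of a region had to be covered, 61.2% with a reciprocal overlap of 50%, 36.3% when regions 1000 bp apart or closer counted as overlapping, 38.9% over 50 kb from a TSS, 42.5% over 200 kb, 38.9% with the TSSs of gene records only, 30.1% at widths of 1000 bp or more, 32.7% with equal numbers of the widest regions, and 10.5% with 3 or more subpeaks, a setting chosen after seeing the data. The KO-only share, 25.3% as reported, was 33.8%, 48.1% and 22.2% under the same 3 overlap rules, 19.9% at 1000 bp or more, 29.1% with equal numbers and 7.90% with 3 or more subpeaks. The control-only share exceeded the KO-only share under every setting, by 2.64 to 17.1 points. The share inside protein-coding genes was 34.2% (control) and 34.3% (RIP140-null) over 50 kb, 13.5% and 14.1% over 200 kb, 49.5% and 50.9% with gene records, and 44.7% and 46.5% with the TSSs of all genes. The median log2 length ratio was 0.067 with the TSSs of all genes and 0.0043 with equal numbers. The cause of these shifts was not tested. The other 35 values of these results stayed within the interval of the reported value. Some of them could not move, namely those with 2 or more subpeaks and the RIP140-null share inside genes with equal numbers. The second setting keeps the whole RIP140-null list. With the central 1000 bp searched, the motif ratio to windows fell from 3.35 to 2.46 (MEF2, control), 3.88 to 2.83 (MEF2, RIP140-null) and 5.78 to 3.74 (CTCF, control). A setting of 2 or more subpeaks keeps every region. Among the 10 genes with most loci, 9 remained with gene records and all 10 over 200 kb. Over 200 kb Tbl1xr1 was first with 53 loci, and Klf6 had 52. No paired analysis was possible because each list merges its replicates, and for the same reason no replicate could be left out. The lists give no depth, so a region absent from 1 list may lie under its detection limit there.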
